A study of Mus musculus with 48 samples.

Results

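The enzymes described here belong to 6 gene families that chemically modify drugs, toxins, steroids and endogenous metabolites: the cytochromes P450 of family 2 (Cyp2), aldehyde dehydrogenases (Aldh), carboxylesterases (Ces), glutathione S-transferases (Gst), UDP-glucuronosyltransferases (Ugt) and cytosolic sulfotransferases (Sult). Genes were taken by their symbol, and a gene was kept when its median level over 24 libraries reached 0.5 RPKM (reads per kilobase of coding sequence, scaled to library size) in both the RNA-seq and the ribosome-footprint (RPF-seq) data. Of 87 genes with a matching symbol, 80 were kept out of 11863 genes that passed the same minimum: 19 Cyp2, 19 Aldh, 10 Ces, 16 Gst, 11 Ugt and 5 Sult genes. No Cyp3 gene was kept, since Cyp3a11 and Cyp3a13 had median RNA levels of 0.381 and 0.439 RPKM. At the minimum, Cyp2b10 was the lowest gene kept, with medians of 0.556 RPKM for RNA and 1.20 RPKM for RPF. Ugt1a2 was the highest gene left out, with 0.494 and 0.578 RPKM, and Ugt2a2 was listed for RNA only.

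The libraries came from kidneys of male C57BL/6JRj mice aged 11 to 12 weeks, collected at 12 timepoints spaced 2 h apart, from ZT0 (Zeitgeber time 0, lights on) to ZT22, in a cycle of 12 h light and 12 h dark. At each timepoint there were 2 replicate pools, each a mixture of kidney lysates from 2 mice, and every pool gave 1 RNA-seq and 1 RPF-seq library, 48 in all. No genotype or treatment distinguished the pools. Whole kidney was used, so that a change in the number of cells of a type cannot be told apart from a change in RNA per cell.

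Detoxification proceeds in steps. Cyp2, Aldh and Ces enzymes oxidise or hydrolyse a compound, and Gst, Ugt and Sult enzymes then attach glutathione, glucuronic acid or sulfate, which makes the product more soluble and ready for export by transporters. In the kidney these enzymes are found mainly in the epithelium of the proximal tubule. Many of their genes arose by tandem duplication and lie side by side in clusters of near-identical copies.

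Whole reads could be recovered from the steps in the RPKM values of nearly every gene, and their sums ran from 10312215 to 33604751 reads for RNA and from 14910639 to 32329312 reads for RPF. The RPF library of ZT4 replicate 2 stood apart, with 162 genes listed at 0 against at most 23 in the other RPF libraries. All 7 proximal tubule markers were present, with a summed RNA level of 8712 to 10897 RPKM, and none of them passed the rhythm test used below. The 4 adrenal cortex markers were not listed. Of 6 hepatocyte markers, Ttr had a median RNA level of 280.6 RPKM and Alb of 15.2 RPKM, and Alb had its highest footprint level, 129.8 RPKM, in the pool of ZT12 replicate 1.

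Sequence shared between copies limits how far single genes can be told apart. For each gene, the longest coding sequence was cut into every 28-base stretch, about the length of a footprint, and each stretch was looked up in the transcripts of all other genes. No stretch was shared for 29 of the 80 genes, up to 20% were shared for 21, between 20% and 50% for 14, and more than 50% for 16. Every Ugt and Ces gene had shared stretches, against 5 of 19 Aldh genes. Ugt1a6a had no stretch of its own, because 100% of its stretches also occur in transcripts listed under Ugt1a7c. The longest coding sequence of Ugt1a7c shared 52.4% of its stretches with other genes. The downstream exons that the genes of the Ugt1a locus share thus do not cover the whole match. Aldh4a1 shared 91.7% with the gene model Gm21969, and Gsta2 shared 90.2% with other Gsta-like genes. How the authors assigned reads that matched several genes is not given in the sources used here, so the levels of such copies are uncertain.

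**Figure D1:**
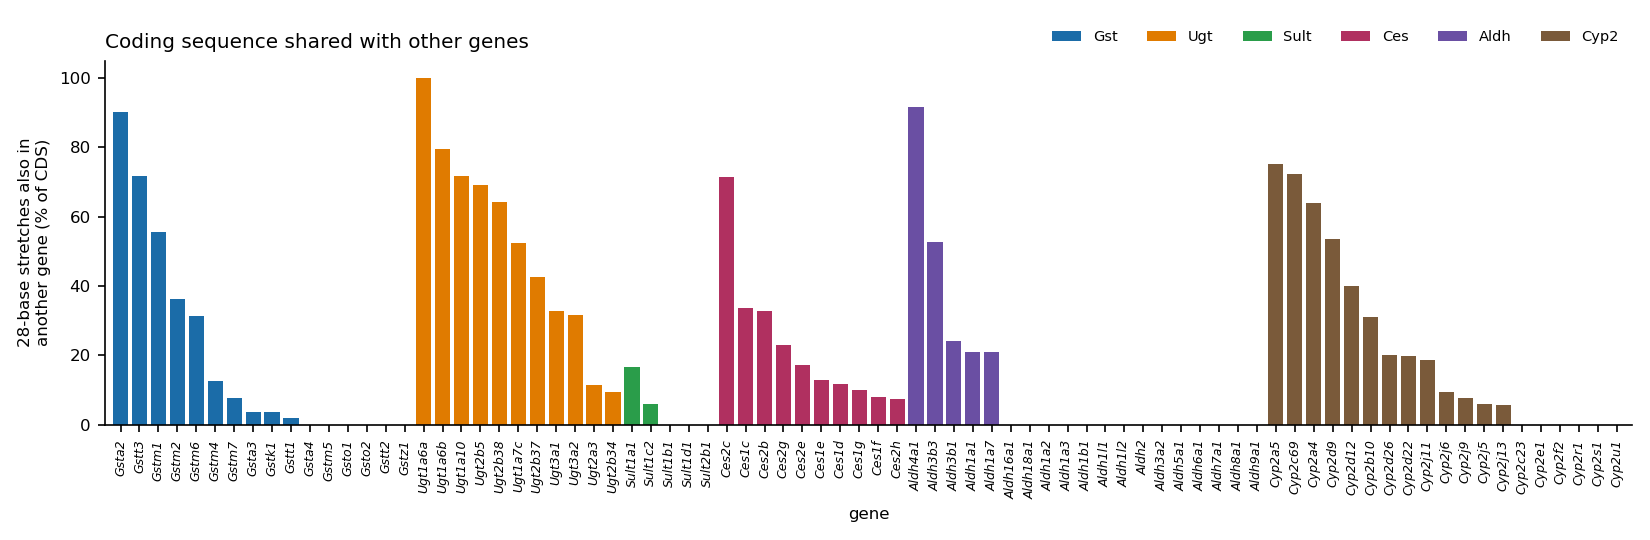
Percentage of the 28-base stretches of each gene's longest coding sequence that also occur in transcripts of another gene, with 1 bar for each of the 80 genes, coloured by family. Ugt and Ces genes all have shared stretches, whereas 14 of 19 Aldh genes have none.

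Members had more RNA, and more footprints per RNA, than most genes tested. The median member had a mean RNA level of 32.4 RPKM and a mean RPF level of 45.9 RPKM, beside 16.5 and 13.7 RPKM for the median gene tested. Translation efficiency (TE) was the ratio of RPF to RNA in the same pool after adding 0.1 RPKM to each, and it is a relative scale because the assays were normalised separately. The median member had a TE of 1.58, beside 0.956 for all genes, and 71 of the 80 members lay above the median of all genes. The same order was seen in every pool, where the members' median log2 TE lay between 0.57 and 0.79 and that of all genes between -0.11 and -0.05. The family medians were close together, from 1.5 for Sult to 1.75 for Gst. The 80 genes held 1.5% to 1.76% of the recovered RNA reads and 2.69% to 3.18% of the recovered RPF reads.

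Levels within a family spanned several orders of magnitude. Cyp2e1, which oxidises ethanol and other small molecules, was the most abundant member, with a lowest, median and highest RNA level of 1046, 1209 and 1452 RPKM and RPF levels of 2055, 2688 and 3367 RPKM. The highest RNA levels of the other families were those of Ugt3a2 (mean 1101 RPKM ± 152, SD over 24 pools), Sult1d1 (720.3 RPKM ± 171), Ces1f (697.9 RPKM ± 93.4), Aldh6a1 (524.4 RPKM ± 24.2) and Gstm1 (344.3 RPKM ± 34.9). At the other end Ces1c had a mean of 0.591 RPKM ± 0.238. The highest TE belonged to Ces1c, at 3.48, followed by Aldh2, at 2.74 in the 99.1st percentile of all genes. The lowest belonged to Cyp2j9, at 0.451 in the 13.4th percentile, whereas its neighbours in the Cyp2j cluster on chromosome 4 lay between 1.29 for Cyp2j11 and 1.86 for Cyp2j13. Among the UDP-glucuronosyltransferases, Ugt2b5 had a TE of 0.573 and its near-identical copy Ugt2b38 had 2.23.

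**Figure D2:**
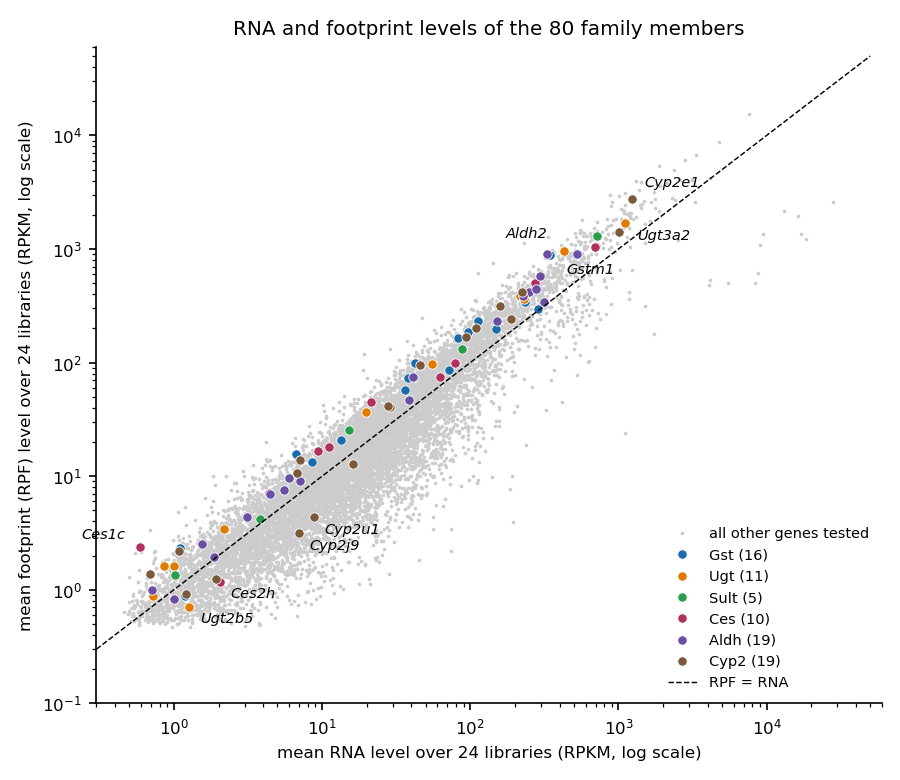
Mean footprint level against mean RNA level over 24 libraries, in RPKM on log axes, with 1 point for each gene: grey for the other genes tested, coloured by family for the 80 members. Most members lie above the dashed line of equal levels, and Cyp2j9, Cyp2u1, Ces2h and Ugt2b5 lie below it.

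Whether these levels changed over the day was tested with a 24-h cosine curve fitted to log2(RPKM + 0.1), with limma's moderated F test and Benjamini-Hochberg adjustment over the 11863 genes. A rhythm in RNA or RPF required an adjusted p under 0.05 and a fitted peak-to-trough fold of at least 1.5, and a rhythm in TE the first criterion alone. Folds of genes near the minimum are understated by the added 0.1. Each timepoint has only 2 pools of 2 mice. The p-values weigh the fitted curve against all remaining variation, which holds the spread between pools and any departure from a cosine shape. Of the 80 members, 11 were rhythmic in RNA (13.8%), 8 in RPF (10.0%) and 12 in TE (15.0%), and the corresponding shares of all genes were 10.2%, 7.58% and 17.1%. The members' shares were thus near those of all genes at each level. Rhythms in both RNA and RPF were found for 6 members, beside 4.25% of all genes: Aldh1a3, Ces1c, Ces1d, Cyp2a5, Gstt2 and Sult1a1. Without the fold criterion, 39 members (48.8%) passed in RNA and 22 (27.5%) in RPF, beside 48.6% and 30.9% of all genes. The median fitted fold of the members was 1.25 in RNA and 1.25 in RPF, beside 1.20 and 1.18 for all genes. The counts leaned on the pools of replicate 1, for the members as for all genes tested. Of all genes, 1210 were rhythmic in RNA and 899 in RPF with all pools. Without replicate 1 there were 722 and 370, and without replicate 2 there were 1430 and 853. Without the pools of replicate 1, 4 members remained rhythmic in RNA (Ces1d, Cyp2s1, Gstt2 and Sult1a1) and 3 in RPF (Ces1d, Gstt2 and Sult1a1). Without the pools of replicate 2, 8 of the 11 RNA rhythms and 7 of the 8 RPF rhythms remained, and Ces1c, Cyp2r1 and Sult2b1 were those lost in RNA and Ces1c in RPF.

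Footprint peaks of the rhythmic members lay mostly in the first part of the night. Of the 8 members rhythmic in RPF, 6 peaked between ZT12 and ZT18, 1 between ZT0 and ZT6 and 1 between ZT6 and ZT12, whereas 23.1% of the 899 rhythmic genes overall peaked between ZT12 and ZT18. The RNA peaks of the 11 members rhythmic in RNA were spread over the day, with 2, 2, 4 and 3 in the successive spans of 6 h from ZT0.

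**Figure D3:**
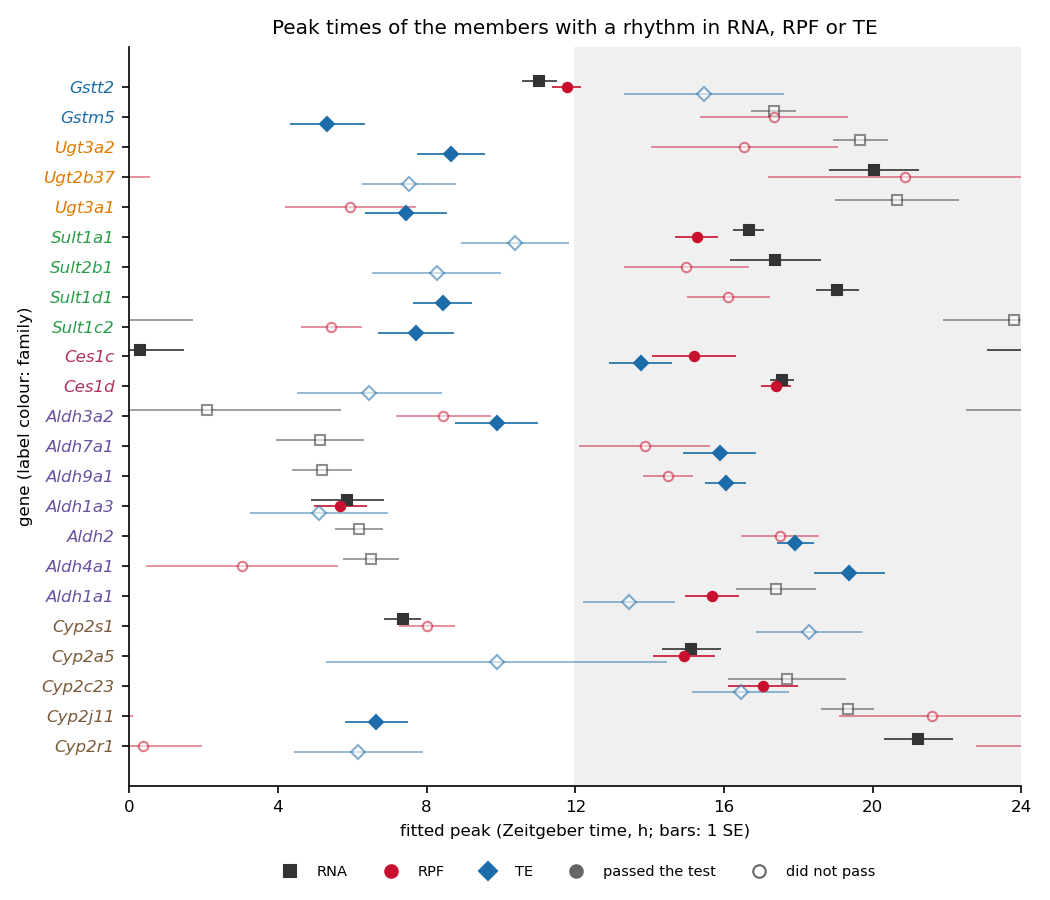
Fitted peak times in Zeitgeber hours with 1 SE, for the 23 members with a rhythm in RNA (squares), RPF (circles) or TE (diamonds); filled symbols passed the test, open ones did not, and the shaded area is the dark phase. Where a TE rhythm was found, the TE diamond lies more than 6 h from the RNA square in all 12 genes.

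Among the P450s, 3 of 19 genes were rhythmic in RNA and 2 in RPF, led by Cyp2a5. Cyp2a5 and Cyp2a4, which hydroxylate coumarin and steroids respectively, are near-identical copies on chromosome 7. Their coding sequences of 1485 bases differ at 23 positions, and the proteins they encode are 97.6% identical. The longest run without a difference is 216 bases, and 61.5% of the 28-base stretches of either gene occur in the other. The stretch of 300 bases with the most differences, coding bases 442 to 741, is shown because reads from it can be assigned to a single gene only where they cross the 9 bases in capitals, which mark the differences from the other gene. Cyp2a4 lies at chr7:26307169-26315088 and Cyp2a5 at chr7:26835305-26843548, both on the forward strand of GRCm38.

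Cyp2a4: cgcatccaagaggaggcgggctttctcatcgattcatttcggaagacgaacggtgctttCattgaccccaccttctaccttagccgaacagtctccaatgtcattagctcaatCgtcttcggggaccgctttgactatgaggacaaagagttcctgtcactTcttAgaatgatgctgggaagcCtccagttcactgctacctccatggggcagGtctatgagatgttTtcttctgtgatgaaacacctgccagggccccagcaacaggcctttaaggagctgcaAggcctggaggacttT

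Cyp2a5: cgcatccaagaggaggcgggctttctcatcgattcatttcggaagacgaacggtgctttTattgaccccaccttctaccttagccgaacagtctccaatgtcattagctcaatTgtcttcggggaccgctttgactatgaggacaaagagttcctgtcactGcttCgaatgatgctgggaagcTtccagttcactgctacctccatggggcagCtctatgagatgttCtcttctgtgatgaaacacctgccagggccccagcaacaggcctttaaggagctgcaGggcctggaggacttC

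Both genes peaked together, and Cyp2a5 swung more widely. The lowest, median and highest RNA levels of Cyp2a5 over the 24 pools were 17.8, 46.1 and 83.1 RPKM. Its timepoint mean was highest at ZT18, with 83.1 and 46.9 RPKM in the 2 pools, and lowest at ZT4, with 17.8 and 29.2 RPKM. The fitted fold was 2.13 in RNA (log2 1.09 ± 0.23, SE; adjusted p = 0.00134) with a peak at ZT15.1 ± 0.79 h, and 2.15 in RPF (log2 1.1 ± 0.24; adjusted p = 0.00391) with a peak at ZT14.9 ± 0.84 h. Cyp2a4 was more abundant, with RNA levels of 113.5, 158.5 and 214.2 RPKM as lowest, median and highest, and its fold was 1.29 in RNA (adjusted p = 0.0257) and 1.28 in RPF (adjusted p = 0.0754), with peaks at ZT15.0 and ZT14.8. Neither met the fold criterion. The ratio of Cyp2a5 to Cyp2a4 itself varied with a 24-h fold of 1.65 in RNA (permutation p = 0.0014 over 100000 resamples, adjusted p = 0.0084 over 12 such ratios) and 1.68 in RPF (permutation p = 0.00131, adjusted p = 0.0084). The summed level of both genes ranged from 132.4 to 297.3 RPKM in RNA and had a fitted fold of 1.42. A division of reads between the pair leaves this sum unchanged. It would change if reads matching both were dropped or counted for each. Of the stretches of Cyp2a5, 75.1% occurred in some other gene, beside 61.5% in Cyp2a4, so other genes can also affect the sum. The rhythm of Cyp2a5 rested on replicate 1 more than on replicate 2: the RNA fold was 2.68 in the pools of replicate 1 and 1.72 in those of replicate 2, where the adjusted p was 0.271 in RNA and 0.294 in RPF. With time as a 12-level factor Cyp2a5 passed in RNA (adjusted p = 0.0253) and not in RPF (adjusted p = 0.0715).

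The promoters of both genes are shown because each holds a D-box, the binding motif of the PAR bZip factors Dbp, Tef and Hlf, whose genes are direct clock outputs. The sequences are from RefSeq on GRCm38.p6, run from 250 bases before to 50 bases after the transcription start on the forward strand, and lie at chr7:26306942-26307241 for Cyp2a4 and chr7:26835089-26835388 for Cyp2a5. Capitals mark the D-box, found on the opposite strand as TTATGCAA.

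Cyp2a4 promoter: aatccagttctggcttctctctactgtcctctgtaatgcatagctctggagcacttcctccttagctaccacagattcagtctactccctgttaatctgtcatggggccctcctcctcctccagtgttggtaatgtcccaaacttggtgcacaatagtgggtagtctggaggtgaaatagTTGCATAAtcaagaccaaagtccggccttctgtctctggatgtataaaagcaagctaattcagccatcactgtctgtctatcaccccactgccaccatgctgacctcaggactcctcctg

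Cyp2a5 promoter: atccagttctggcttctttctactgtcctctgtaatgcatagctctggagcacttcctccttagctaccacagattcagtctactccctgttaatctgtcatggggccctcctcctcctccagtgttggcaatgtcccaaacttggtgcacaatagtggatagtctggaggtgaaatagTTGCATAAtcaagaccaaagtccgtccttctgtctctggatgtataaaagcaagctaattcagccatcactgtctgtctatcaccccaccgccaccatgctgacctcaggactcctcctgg

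These promoters are identical at 294 of 301 aligned positions, and the D-box lies 70 to 63 bases before the start in Cyp2a4 and 71 to 64 in Cyp2a5. The motif TTATGNAA, searched on both strands, occurred in a promoter of 10 of the 65 members with a RefSeq promoter (15.4%). Counted by gene in the same way, it occurred in 2.67% of 9337 tested genes. Counted by promoter, an unlike unit, it occurred in 3.38% of all 32851 promoters. The other 8 were Aldh18a1, Aldh3b1, Ces1c, Ces1e, Ces1g, Cyp2b10, Gstt1 and Ugt1a10. Ces1c, Ces1e and Ces1g lie in the same cluster, as do Cyp2a4, Cyp2a5 and Cyp2b10, so the 10 are not independent cases. Among all 10, Cyp2a5 and Ces1c were rhythmic in RNA or RPF, beside 13 of the 80 members and 1605 of the 11863 genes tested. The E-box CACGTG occurred in 3 members (4.62%), beside 7.15% of all promoters and 11.9% of the tested genes. The antioxidant response element, searched as TGACNNNGC, occurred in 6 members (9.23%), beside 12.4% of all promoters and 17.0% of the tested genes. Both promoters of the Cyp2a pair held the D-box. Cyp2a5 passed the rhythm test, and Cyp2a4 had an adjusted p under 0.05 in RNA but missed the fold criterion. A match in the letters does not show that a factor binds, and the part of the D-box in these rhythms was not tested.

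The other P450s with a rhythm were Cyp2s1, Cyp2r1 and Cyp2c23. Cyp2s1, which metabolises retinoids, had RNA levels of 4.06, 7.14 and 9.47 RPKM as lowest, median and highest, was highest at ZT10 (7.99 and 9.47 RPKM) and lowest at ZT20 (4.06 and 5.06 RPKM), and its fold was 1.70 (log2 0.77 ± 0.10; adjusted p = 5.02e-06) with a peak at ZT7.35 ± 0.49 h. Its RPF fold of 1.40 had an adjusted p of 0.00137 but did not reach the fold criterion. Cyp2r1, a vitamin D 25-hydroxylase, was scarce, with RNA levels of 1.03 to 2.84 RPKM, and was rhythmic in RNA alone (fold 1.63, log2 0.71 ± 0.17; adjusted p = 0.00513). Its RPF fold was 1.42 with an adjusted p of 0.154, from 9 to 79 RPF reads per library. Cyp2c23, an arachidonic acid epoxygenase of the kidney, was rhythmic in RPF alone: its RPF levels were 8.01, 12.0 and 18.6 RPKM as lowest, median and highest, with a fold of 1.60 (log2 0.68 ± 0.17; adjusted p = 0.0101) and a peak at ZT17.0 ± 0.94 h. Its RNA fold was 1.26 (adjusted p = 0.119), and the difference between both levels, its TE rhythm, did not pass (adjusted p = 0.097).

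Genes of the Cyp2j cluster, which encode epoxygenases of fatty acids, lie next to each other on chromosome 4 but differed in peak time. The RNA of Cyp2j11, Cyp2j13 and Cyp2j5 had fitted peaks at ZT19.3 ± 0.71 h, ZT19.2 ± 0.55 h and ZT20.3 ± 1.4 h, with folds of 1.35, 1.44 and 1.18. Cyp2j9 peaked at ZT8.06 ± 0.69 h with a fold of 1.48. The 24-h component of the RNA had adjusted p-values of 0.000444 for Cyp2j11, 2.4e-05 for Cyp2j13, 0.0797 for Cyp2j5 and 0.000298 for Cyp2j9, and none of these folds reached 1.5. Between 5.79% (Cyp2j13) and 18.7% (Cyp2j11) of the 28-base stretches of these 4 genes were shared with other genes. Cyp2e1, the most abundant member, had an RPF fold of 1.29 (log2 0.36 ± 0.07; adjusted p = 0.000966) with a peak at ZT15.1, and an RNA fold of 1.13 (adjusted p = 0.119).

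Of the 19 aldehyde dehydrogenases, 1 was rhythmic in RNA and 2 in RPF, both of the retinal-oxidising Aldh1a group, whose products are retinoic acids. Aldh1a3 peaked in the day. Its lowest, median and highest RPF levels were 4.33, 7.55 and 12.5 RPKM, with 12.5 and 9.06 RPKM at ZT4 and 4.40 and 4.33 RPKM at ZT18. The fold was 1.60 in RNA (log2 0.68 ± 0.17; adjusted p = 0.00818; peak ZT5.87) and 1.86 in RPF (log2 0.90 ± 0.17; adjusted p = 0.000966; peak ZT5.68). The highest level of Aldh1a3 was in the pool of ZT4 replicate 1 in both assays, as were those of the adipocyte markers Adipoq, Plin1 and Cfd. Of 4 adipocyte markers, whose summed RNA level ranged from 106.6 to 176.9 RPKM, 3 could be tested and Adipoq and Cfd were rhythmic in RNA and RPF, with RNA peaks at ZT3.95 and ZT5.00. Fabp4, the most abundant of these markers (median RNA 128.3 RPKM), was highest in ZT4 replicate 2 in RNA and in ZT16 replicate 2 in RPF. It was not rhythmic in RNA (adjusted p = 0.193) or RPF (adjusted p = 0.0986). Without the pool of ZT4 replicate 1, an alternative chosen after seeing the data, Aldh1a3 still passed in RNA (fold 1.52, adjusted p = 0.0204) and RPF (fold 1.78, adjusted p = 0.00274). With time as a 12-level factor it did not (adjusted p = 0.119 and 0.167). Aldh1a1 peaked at night. Its RPF levels were 4.65, 6.37 and 15.9 RPKM as lowest, median and highest, and both pools of ZT16 stood above the other 22, with 14.7 and 15.9 RPKM against a next highest value of 7.89 RPKM. The RPF fold was 1.84 (log2 0.88 ± 0.17; adjusted p = 0.000951; peak ZT15.7) and the RNA fold 1.48 (adjusted p = 0.0159; peak ZT17.4). Without the 2 pools of ZT16, an alternative chosen after seeing these values, the RPF fold of Aldh1a1 was 1.47 (adjusted p = 0.00137), under the fold criterion. The summed RNA level of the red cell markers was also highest at ZT16, in replicate 1, with 373.2 RPKM against a median of 92.2 RPKM, and its part in the result was not tested.

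Aldh1a7 is a copy of Aldh1a1 next to it on chromosome 19, with 90.6% protein identity and 21% of its 28-base stretches shared. It too was highest at ZT16, with 11.6 and 10.6 RPKM in RNA and 16.7 and 15.5 RPKM in RPF, but its 24-h component did not pass in RNA (fold 1.27, adjusted p = 0.382) or RPF (fold 1.39, adjusted p = 0.134). The ratio of Aldh1a7 to Aldh1a1 had a 24-h fold of 1.23 in RNA (permutation p = 0.157, adjusted p = 0.209) and 1.44 in RPF (permutation p = 0.0227, adjusted p = 0.0454). The mitochondrial Aldh6a1 of valine and pyrimidine breakdown, the most abundant member of the family, was nearly flat, with RNA levels of 482.7 to 586.6 RPKM and folds of 1.03 in RNA and 1.05 in RPF.

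**Figure D4:**
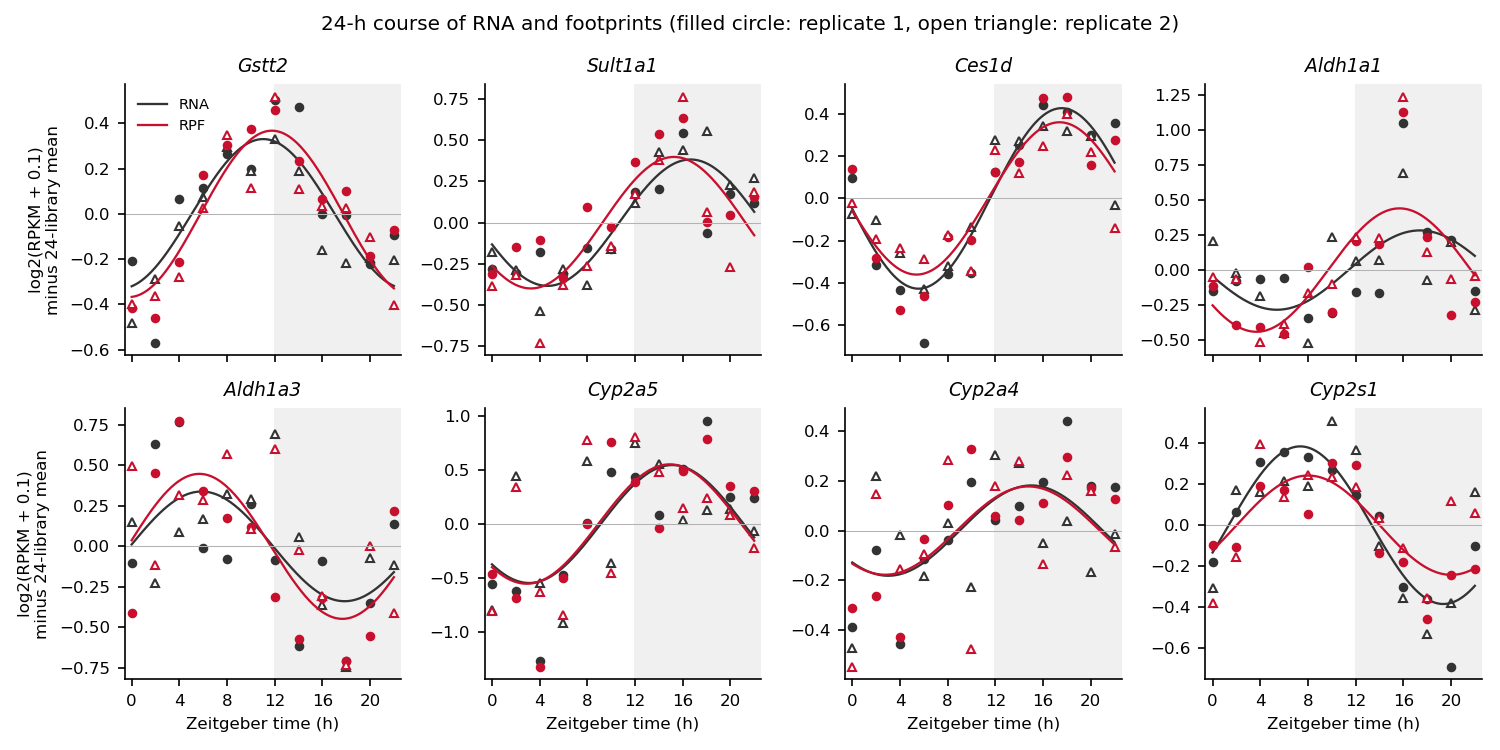
RNA (black) and footprint (red) levels of 8 members over 24 h as log2(RPKM + 0.1) minus the mean of 24 libraries, with replicate 1 as filled circles, replicate 2 as open triangles, fitted cosine curves as lines and the dark phase shaded. Cyp2a5 and Cyp2a4 share their peak near ZT15 at different amplitudes, and Aldh1a1 is highest in both pools of ZT16.

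Carboxylesterases hydrolyse ester and amide drugs and lipids, and 2 of 10 were rhythmic in both RNA and RPF. Ces1d, one of the abundant members, had the lowest adjusted p of the family at both levels. Its RNA levels were 166.3, 274.2 and 363.9 RPKM as lowest, median and highest, with 363.9 and 340.1 RPKM at ZT16 and 166.3 and 199.0 RPKM at ZT6. The fold was 1.81 in RNA (log2 0.86 ± 0.07; adjusted p = 5.21e-09; peak ZT17.6 ± 0.32 h) and 1.65 in RPF (log2 0.72 ± 0.08; adjusted p = 5.32e-07; peak ZT17.4 ± 0.40 h). Its cluster neighbours on chromosome 8, Ces1e and Ces1f, had RNA peaks at ZT17.6 and ZT18.8 with folds of 1.23 (adjusted p = 0.00119) and 1.24 (adjusted p = 0.0183), under the fold criterion. Of the 10 genes, Ces1g differed most between single timepoints, with 40.5 and 41.1 RPKM of RNA at ZT22 and 11.2 and 7.88 RPKM at ZT16, but its 24-h component did not pass in RNA (fold 1.59, adjusted p = 0.266) or RPF (fold 1.44, adjusted p = 0.447).

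Ces1c was the member with the largest TE fold, and it had few reads. Its RNA level was 0.14, 0.62 and 0.987 RPKM as lowest, median and highest, from 4 to 40 reads per library, and its RPF level 1.18, 1.97 and 5.81 RPKM, from 48 to 222 reads. RNA peaked at ZT0.286 (fold 1.91, log2 0.93 ± 0.29; adjusted p = 0.0313) and RPF at ZT15.2 (fold 1.94, log2 0.95 ± 0.28; adjusted p = 0.0337), and the TE fold was 3.36 (log2 1.75 ± 0.39; adjusted p = 0.0115). Over the alternatives the TE fold ran from 2.02 with a pseudocount of 1 to 5.34 with time as a 12-level factor, where it did not pass (adjusted p = 0.0569). In that model the fold is the highest over the lowest fitted timepoint mean, so it is not comparable with a cosine fold. The RNA fold was 1.28 with a pseudocount of 1, under the fold criterion. The highest RPF values were in the pools of ZT12 replicate 1 and ZT16 replicate 2, with 5.81 and 5.79 RPKM. In the same pools Alb stood at 129.8 and 104.1 RPKM of RPF, against a median of 45.4 RPKM, and Apoa1 at 27.6 and 18.5 RPKM against 9.07 RPKM. The RPF level of Cyp3a11, which was left out for its RNA level, was 12.7 and 9.03 RPKM there against a median of 2.78 RPKM. The medians of RPF exceeded those of RNA 3.17-fold for Ces1c, 7.30-fold for Cyp3a11, 2.98-fold for Alb and 4.74-fold for Cps1. Of the 5 hepatocyte markers tested, 3 were rhythmic in RNA, with peaks at ZT23.8 for Alb, ZT1.35 for Apoa1 and ZT1.68 for Fgb. In RPF only Alb was (fold 2.14, adjusted p = 0.0211, peak ZT15.6), and Apoa1 had a fitted RPF peak at ZT15.4 that did not pass (adjusted p = 0.16). The peaks of Ces1c lay near those of Alb and Apoa1 at both levels. The hepatocyte markers did not all follow this course. In the same 2 pools Serpina1a stood at 1.97 and 13.2 RPKM of RPF, against a median of 3.96 RPKM, and Ttr at 561.5 and 378.2 RPKM against 401.1 RPKM. Their ratios of median RPF to median RNA were 0.784 and 1.43. Fitted RNA peaks of Serpina1a at ZT14.4 and Ttr at ZT18.0 did not pass (adjusted p = 0.549 and 0.762). The summed RPF level of all 6 hepatocyte markers ranged from 206.1 to 733.8 RPKM, and their part in the result was not tested. Without these 2 pools, an alternative chosen after seeing the data, Ces1c was no longer rhythmic in RPF (fold 1.54, adjusted p = 0.129). Its calls in RNA and TE held there.

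Of the 16 glutathione S-transferases, 1 was rhythmic in RNA and in RPF, the theta-class enzyme Gstt2. Its lowest, median and highest RNA levels were 154.6, 229.0 and 325.2 RPKM, with 325.2 and 288.9 RPKM at ZT12 and 154.6 and 188.0 RPKM at ZT2. The RNA fold was 1.58 (log2 0.66 ± 0.08; adjusted p = 3.22e-06; peak ZT11.0 ± 0.48 h) and the RPF fold 1.66 (log2 0.73 ± 0.07; adjusted p = 2.08e-07; peak ZT11.8 ± 0.38 h). None of its 28-base stretches occurred in another gene. Its neighbours on chromosome 10, Gstt1 and Gstt3, had folds of 1.19 and 1.16 in RNA and of 1.20 each in RPF. Gstm1, the most abundant member, had a fold of 1.1 in RNA (adjusted p = 0.368) and 1.1 in RPF (adjusted p = 0.35), while Gsta3 came nearest to the fold criterion with 1.46 at both levels (adjusted p = 0.00204 and 0.00109).

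Among the 11 UDP-glucuronosyltransferases, 1 was rhythmic in RNA and none in RPF. In limma the RPF of 3 members had an unadjusted p under 0.05: Ugt2b34 kept an adjusted p of 0.00117 with a fold of 1.24, under the criterion, whereas Ugt2a3 had a fold of 1.54 with an adjusted p of 0.0502 and Ugt1a6a a fold of 1.32 with an adjusted p of 0.0804. Ugt2b37 had RNA levels of 29.1, 54.1 and 88.7 RPKM as lowest, median and highest, with 66.8 and 71.6 RPKM at ZT20 and 29.1 and 38.7 RPKM at ZT6. Its RNA fold was 1.52 (log2 0.60 ± 0.19; adjusted p = 0.0332; peak ZT20.0 ± 1.2 h) and its RPF fold 1.17 (adjusted p = 0.693). Without the pool of ZT4 replicate 1 its RNA fold was 1.48 (adjusted p = 0.0453), and the call was lost. The RPF of its replicates went apart, with fitted peaks at ZT15.9 in replicate 1 and ZT1.16 in replicate 2. Ugt2b37 is 91.3% identical in protein to the far more abundant Ugt2b38 (RNA mean 429.8 RPKM) and 92.1% to the scarce Ugt2b5 (1.27 RPKM), and 42.7% of its stretches were shared. Ugt2b38 and Ugt2b5 are 96.4% identical in protein, yet their mean RPF levels were 952.9 and 0.709 RPKM.

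The closest pair of the Ugt1a locus was Ugt1a6a and Ugt1a6b, with 97.2% protein identity, mean RNA levels of 2.17 and 0.727 RPKM and no rhythm at either level. Ugt3a2, whose group uses sugars other than glucuronic acid, was the most abundant Ugt, with RNA levels of 847.6, 1097 and 1341 RPKM as lowest, median and highest and an RNA fold of 1.34 (log2 0.42 ± 0.08; adjusted p = 0.000587; peak ZT19.7) that did not reach the criterion.

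Sulfotransferases had the largest share of rhythmic RNAs, 3 of 5, though of so few genes. Sult1a1, a phenol sulfotransferase, passed in RNA and RPF. Its RNA levels were 10.2, 13.7 and 21.7 RPKM as lowest, median and highest, with 21.6 and 20.1 RPKM at ZT16 and 13.1 and 10.2 RPKM at ZT4, and the fold was 1.70 in RNA (log2 0.77 ± 0.09; adjusted p = 6.99e-07; peak ZT16.7 ± 0.43 h) and 1.74 in RPF (log2 0.80 ± 0.12; adjusted p = 0.000106; peak ZT15.3 ± 0.59 h). Sult1d1, which acts on catecholamines and other phenols, was rhythmic in RNA, with levels of 441.2, 724.1 and 1007 RPKM, 940.7 and 985.9 RPKM at ZT20 and 524.1 and 441.2 RPKM at ZT8. Its RNA fold was 1.72 (log2 0.78 ± 0.12; adjusted p = 3.94e-05; peak ZT19.1 ± 0.58 h), while its RPF fold was 1.24 (log2 0.30 ± 0.09; adjusted p = 0.0313; peak ZT16.1 ± 1.1 h). Sult2b1, a cholesterol sulfotransferase, was rhythmic in RNA at a level of 0.35 to 2.10 RPKM (fold 1.77, log2 0.82 ± 0.26; adjusted p = 0.036), from 6 to 41 reads per library, and its RPF fold of 1.49 had an adjusted p of 0.182. Without the pools of ZT16 the adjusted p of Sult2b1 in RNA was 0.147.

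In 12 members the ratio of footprints to RNA changed over the day, so that the rhythm of footprints differed from that of RNA in the same pools. With the pools of a single replicate number, where 0 and 2 of all 11863 genes had a TE rhythm, none of the 80 members passed in limma, and 13 members without replicate 1 and 16 without replicate 2 had an unadjusted p under 0.05. With time as a 12-level factor only Aldh9a1 passed. By peak time, 10 of the 12 fell on either side of the day. The mitochondrial or cytosolic dehydrogenases Aldh2, Aldh9a1, Aldh4a1 and Aldh7a1, which handle acetaldehyde, betaine aldehyde, proline breakdown and lysine breakdown, had RNA peaks between ZT5.13 and ZT6.50 and TE peaks between ZT15.9 and ZT19.4. Sult1d1, Ugt3a2, Ugt3a1, Cyp2j11, Sult1c2 and Gstm5 had RNA peaks between ZT17.3 and ZT23.8 and TE peaks between ZT5.33 and ZT8.66. Aldh3a2 (TE peak ZT9.89) and Ces1c (ZT13.8) were the remaining ones. The TE peak lay more than 6 h from the RNA peak in all 12, as it did for 90.8% of the 2028 genes with a TE rhythm, and RNA enters TE with a negative sign. The TE folds of the 12 ranged from 1.13 for Aldh3a2 to 3.36 for Ces1c, and 4 of the 80 members had a TE rhythm with a fold of at least 1.5 (Aldh2, Aldh9a1, Ces1c and Sult1d1), beside 3.74% of all genes tested.

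Aldh2 and Aldh9a1 had RNA and footprints in opposite phase. The RNA of Aldh2, the main acetaldehyde dehydrogenase, was 264.0, 332.0 and 420.3 RPKM as lowest, median and highest, with 349.1 and 420.3 RPKM at ZT2 and 281.4 and 264.0 RPKM at ZT20. Its RPF was highest at ZT16, with 959.9 and 1127 RPKM, and lowest at ZT4, with 873.0 and 731.7 RPKM. RNA peaked at ZT6.18 ± 0.65 h (fold 1.30; adjusted p = 0.000162) and RPF at ZT17.5 ± 1.0 h (fold 1.18; adjusted p = 0.02). The TE was 3.14 and 3.87 at ZT16 and 2.19 and 2.36 at ZT6, with a fold of 1.53 (log2 0.61 ± 0.08; adjusted p = 0.000347). Aldh9a1, which oxidises aminobutyraldehyde on the way to carnitine and GABA, had its RNA peak at ZT5.19 ± 0.80 h (fold 1.31; adjusted p = 0.0015) and its RPF peak at ZT14.5 ± 0.67 h (fold 1.22; adjusted p = 0.000478). Its TE was 2.52 and 2.68 at ZT16 and 1.77 and 1.43 at ZT4, with a fold of 1.55 (log2 0.63 ± 0.09; adjusted p = 0.0006). No 28-base stretch of either gene occurred elsewhere. Of 18 members with a 24-h component in both RNA and RPF at an adjusted p under 0.05, the peaks of 3 lay more than 6 h apart (Aldh2, Aldh9a1 and Ces1c; 16.7%), and among all genes the share was 4.21% of 2445.

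In the second group, the fitted fold of footprints was below that of RNA in all but Sult1c2. This order is common among genes with a TE rhythm. It held for 9 of the 12 members and for 65.6% of the 2028 genes with such a rhythm. The TE of Sult1d1 was 2.82 and 2.12 at ZT8 and 1.30 and 1.34 at ZT20, with a fold of 1.51 (log2 0.60 ± 0.12; adjusted p = 0.00726), and the replicates differed in size, with TE folds of 1.82 and 1.27. The neighbouring genes Ugt3a1 and Ugt3a2 had TE folds of 1.27 each (adjusted p = 0.0457 and 0.0179), and 30.0% of the stretches of each occur in the other. Both had their lowest TE at ZT20, with 1.29 and 1.30 for Ugt3a1 and 1.25 and 1.31 for Ugt3a2, and their highest at ZT8, with 2.03 and 1.90 and with 1.91 and 1.90. Cyp2j11 and Gstm5 had TE folds of 1.27 each (adjusted p = 0.0113 and 0.0292) with RPF folds of 1.08 and 1.1. Sult1c2 had a 24-h component in RPF (fold 1.22; adjusted p = 0.0037) and none that passed in RNA (adjusted p = 0.22). Ugt3a1 had none that passed in RNA (adjusted p = 0.144) or RPF (adjusted p = 0.211). Across all 12, leaving out both pools of ZT16 or the pools of ZT12 replicate 1 and ZT16 replicate 2 kept 8 TE rhythms each, and Aldh3a2, Aldh7a1 and Ugt3a1 were lost in both, with Sult1c2 in the first and Gstm5 in the second. Without the RPF library of ZT4 replicate 2, the TE rhythms of Aldh3a2, Aldh7a1, Gstm5 and Ugt3a1 no longer passed, and 8 members remained.

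**Figure D5:**
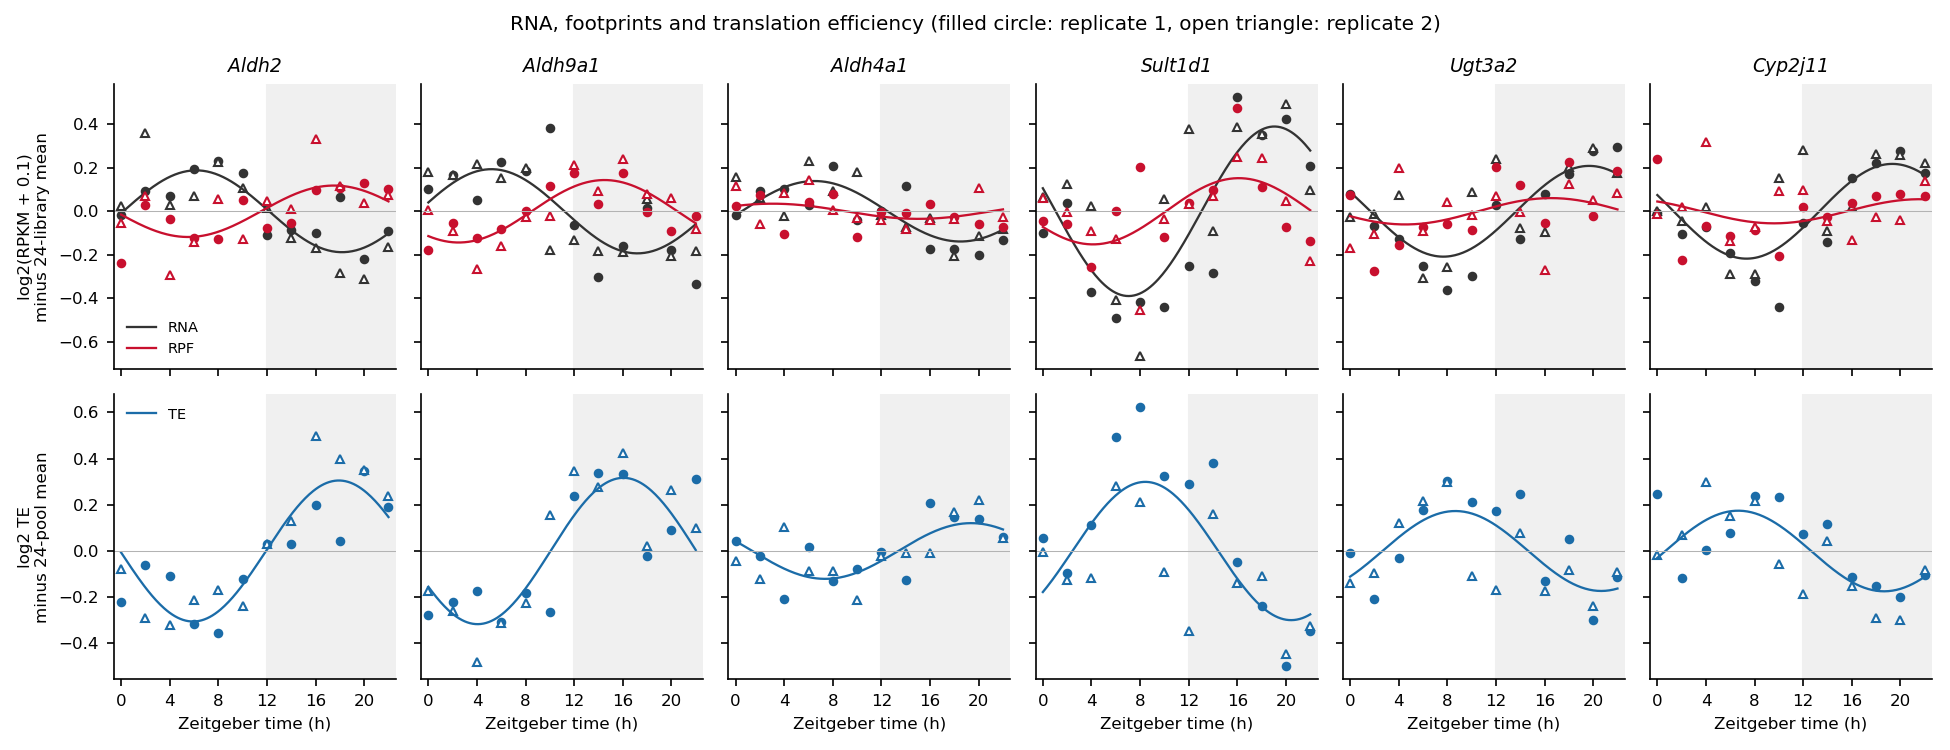
RNA (black) and footprint (red) levels of 6 members in the upper row and their TE (blue) in the lower row, on log2 scales centred on the mean of 24 libraries or pools, with replicate 1 as filled circles, replicate 2 as open triangles, fitted cosine curves and the dark phase shaded. The TE of Aldh2, Aldh9a1 and Aldh4a1 is high at night, and that of Sult1d1, Ugt3a2 and Cyp2j11 is high in the day.

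Genes that supply these enzymes with cofactors or electrons had rhythms in single cases. Of 12 such genes, 2 were rhythmic in RNA, 1 in RPF and 3 in TE, beside 10.2%, 7.58% and 17.1% of all genes, and their median RNA fold was 1.18. Alas1, the rate-limiting enzyme of haem synthesis, had RNA levels of 95.7 to 283.9 RPKM and folds of 1.95 in RNA (adjusted p = 1.2e-06; peak ZT14.7) and 2.12 in RPF (adjusted p = 2.13e-05; peak ZT14.4). Por, the electron donor of microsomal P450s, had a fold of 1.51 in RNA (adjusted p = 3.54e-06; peak ZT11.1) and 1.27 in RPF (adjusted p = 0.012). Ugp2 and Ugdh, which make UDP-glucuronic acid, had TE rhythms with folds of 1.34 (adjusted p = 0.0171) and 1.19 (adjusted p = 0.0242), as did Cyb5a (fold 1.20; adjusted p = 0.0372). None of the glutathione synthesis genes Gclc, Gclm and Gss was rhythmic at any level.

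Among regulators of these families, the PAR bZip factors Dbp, Tef and Hlf were rhythmic in RNA and RPF. Dbp ran from 1.67 to 106.0 RPKM in RNA, with a fold of 42.1 (adjusted p = 6.83e-14) and a peak at ZT10.5, and had a fold of 33.9 in RPF. Tef had folds of 2.87 and 2.72 with peaks at ZT11.4 and ZT11.2, and Hlf folds of 1.81 and 1.62 with peaks at ZT14.6 and ZT12.3. Ppara, a receptor for fatty acids, was rhythmic in RPF alone (fold 1.54; adjusted p = 5.48e-05). The receptors Ahr and Nr1i2 and the oxidative stress factor Nfe2l2 were not rhythmic in RNA, RPF or TE, and Nr1i3 was not listed. Of 11 other drug-metabolising enzymes tested, Ephx1, a microsomal epoxide hydrolase, was the only gene rhythmic in RNA and in RPF, with a fold of 1.72 at both levels (adjusted p = 1.95e-10 and 1.7e-09) and peaks at ZT12.5 and ZT11.8. TE rhythms were found for Fmo1, Fmo5 and Tpmt, with folds of 1.21, 1.21 and 1.22.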

How the data were processed

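RNA-seq and RPF-seq libraries of 24 kidney pools were analysed from gene tables of RPKM that the authors deposited. Per the paper's methods, reads were trimmed with Cutadapt, kept at 26 to 35 bases (RPF) or 21 to 60 bases (RNA), and mapped with Bowtie2 2.2.1 in turn to rRNA, tRNA and cDNA, with TopHat2 2.0.11 for the genome (GRCm38.p2). Reads on coding sequences were counted, scaled by the upper quantile and divided by coding length. The handling of reads that match several genes is not given in the sources used here.

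Gene symbols were matched for 12849 of 12927 identifiers. Genes with a median of at least 0.5 RPKM in both assays were kept. RPKM were analysed as log2(RPKM + 0.1) with limma 3.58.1 (R 4.3.3), with eBayes using a trend, and cosine and sine terms of 24 h were tested together by the moderated F statistic over 24 samples. TE was the log2 difference of RPF and RNA of the same pool. The fold is the fitted peak-to-trough ratio. The fits were tested on simulated data. Pair ratios were tested by permuting pools across timepoints, one-sided on the size of the 24-h fold. Whole reads were recovered to within 0.001 for 12727 of 12728 RNA and 12619 of 12622 RPF genes.

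The members and gene lists were chosen with earlier results of these data known. Named members were, per family, the one with the highest mean RNA and up to 3 rhythmic ones in RNA and in RPF, then the 6 largest TE folds, the highest and lowest TE, and pairs with at least 90% protein identity. That identity was computed from translated GENCODE vM21 coding sequences, since no protein table was used here, and not from RefSeq proteins as first laid down. The genes at the minimum, the other TE rhythms, the Cyp2j genes other than Cyp2j9, Ces1e, Ces1g, Gstt1, Gstt3, Gsta3, Ugt2a3, Ugt2b34 and the D-box holders were chosen after their values were seen. Alternatives were other pseudocounts and minimums, a stricter threshold, other time models, quantile normalisation, a replicate term and left-out replicates. Those on single pools or on recovered reads were added after seeing the data. The counts over the list of regulators are not reported here.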

Additional observations from a re-analysis of the deposited data

Results flagged for a closer look

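For 12 members the 24-h curves of RNA and RPF differed from each other by the test of TE (limma, adjusted p under 0.05 over 11863 genes). That is 15.0% of the members, beside 17.1% of all genes. The TE folds were 3.36 for Ces1c, 1.55 for Aldh9a1, 1.53 for Aldh2, 1.51 for Sult1d1, 1.27 for Cyp2j11, Gstm5, Ugt3a1 and Ugt3a2, 1.25 for Sult1c2, 1.21 for Aldh7a1, 1.18 for Aldh4a1 and 1.13 for Aldh3a2. None passed at an adjusted p under 0.05 with the pools of a single replicate number, where 13 and 16 of the 80 members had an unadjusted p under 0.05.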

How the results depend on the processing

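The rhythms of Ces1d, Gstt2 and Sult1a1 in RNA and RPF and of Cyp2s1 in RNA passed under all 16 alternatives. Over all 31 member rhythms and 491 refits, 381 kept the call, 110 lost it and none changed direction. A pseudocount of 1 lowered the rhythmic genes from 1210 to 781 in RNA and from 899 to 590 in RPF, and the members rhythmic in RNA from 11 to 7. With time as a 12-level factor, the fold is the highest over the lowest fitted timepoint mean, and not that of a cosine. This model raised the RNA count to 2291 and gave 101 TE rhythms against 2028, 1 of them a member. It kept 6 of 11 member rhythms in RNA (Aldh1a3, Ces1c, Cyp2r1, Sult2b1 and Ugt2b37 were lost) and 5 of 8 in RPF (Aldh1a3, Cyp2a5 and Cyp2c23 were lost). A threshold of 0.01 left 560 TE rhythms, 3 of them members. With a single replicate number the counts ran from 722 to 1430 genes in RNA, 370 to 853 in RPF and 0 to 2 in TE (limma; 1858 and 2545 genes had an unadjusted p under 0.05 in TE), and from 4 to 14 members in RNA, 3 to 9 in RPF, 3 to 5 at both levels and 0 to 0 in TE. Apart from the number of samples, which fell to 12, the cause of these shifts was not tested. Aldh3a2 kept its TE call under 3 of 16 alternatives.

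The differences between replicates correlated by 0.029 on average between timepoints in RNA, with a range from -0.181 to 0.480. Of 66 pairs of timepoints, 13 exceeded 0.1. The replicate numbers thus did not pair the pools throughout, though some timepoints deviated together. With replicate number as a block, 11 members were rhythmic in RNA, 8 in RPF, 6 at both levels and 13 in TE, where Cyp2j6 was added, and 1214, 895 and 2161 genes in all. Without the RPF library of ZT4 replicate 2, 909 genes were rhythmic in RPF and 1833 in TE, with 9 and 8 members. On recovered reads with voom weights, added after seeing the data, 12, 9 and 13 members passed. Depth limits scarce members most, such as Ces1c with 4 to 40 RNA reads per library.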
